A study of Mus musculus with 4 samples.

Results

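Expression of 31 genes for the breakdown of branched-chain amino acids and propionate was described in the livers of DBA/2J and C57BL/6J mice, among the 50584 gene symbols counted in the study. The members were listed by name, from their place in the pathway, and the list holds the aminotransferases, the branched-chain ketoacid dehydrogenase (BCKDH) complex and its switch, the leucine, valine and isoleucine branches, the propionate route, and the genes that handle its cofactors, cobalamin and biotin. Both strains are inbred. The 4 libraries, 2 mice per strain, came from liver RNA with poly(A) capture, and the mice were wild-type males, 14 weeks old, on chow. The title of the study names lower mRNA of Mlycd, the malonyl-CoA decarboxylase gene, in DBA/2J, and C57BL/6J is the strain it was set against. All 31 symbols were found in the count tables, and 30 passed the filter on low counts. Bcat1 did not.

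Leucine, isoleucine and valine are first stripped of their amino group and then oxidised by BCKDH, a mitochondrial complex that a kinase turns off and a phosphatase turns on. The leucine branch ends in acetoacetate and acetyl-CoA. Valine and part of isoleucine end in propionyl-CoA, which a biotin enzyme, an epimerase and a cobalamin-dependent mutase convert to succinyl-CoA. Liver is known for low aminotransferase activity and high BCKDH activity, so that it oxidises ketoacids released by muscle and other tissues. Inherited loss of these enzymes causes maple syrup urine disease, isovaleric acidaemia, propionic acidaemia and methylmalonic acidaemia.

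Few of the genes passed the test between the strains. Bckdhb, a subunit of the BCKDH decarboxylase, was 1.67-fold higher in DBA/2J, and Hlcs, the enzyme that attaches biotin to carboxylases, was 1.44-fold higher. Mcee, the methylmalonyl-CoA epimerase, was 1.68-fold lower, and Mmadhc, which directs cobalamin to its enzymes, was 1.40-fold lower. With these 4 of 30, the members were called at 13.3%, against 18.2% of all 15647 tested genes (quasi-likelihood test of edgeR, called at a Benjamini-Hochberg adjusted p below 0.05). In each direction 2 members were called. Across all tested genes 9.29% were called higher and 8.87% lower, or 1454 and 1388 genes. With scaling by library totals alone these became 1924 and 1024, and 5 members were higher and 2 lower. The median log2 difference was 0.11 over the 30 members and 0.01 over all tested genes, and the median absolute difference was 0.19 against 0.31. An absolute value of at least 0.5 was reached by 4 members, which are Bckdhb, Mcee, Hlcs and Abat, and by 31.7% of all tested genes. Log2 differences throughout are DBA/2J minus C57BL/6J. None of the 4 calls was kept when either DBA/2J library was left out: 0 members were then called by edgeR, and 4 had an unadjusted p below 0.05 in each of those fits, against 18.2% and 19.8% of all tested genes at that unadjusted threshold. Of all tested genes, 1.79% and 1.92% were called there.

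The libraries held 48096706 to 52520737 counts. Library sizes were scaled by the TMM method, and levels are given in CPM, the count of a gene scaled to a common library size. All 5 hepatocyte markers were expressed, and summed to 80460 to 92168 CPM. Among markers of other cells, the cholangiocyte list summed to 23.9 and 24.6 CPM in DBA/2J and 76.5 and 49.8 CPM in C57BL/6J. Most of the difference was Spp1, at 13.6 and 14.4 CPM in DBA/2J and 61.8 and 40.4 CPM in C57BL/6J. Krt19, Krt7 and Sox9 overlapped between the strains, and Epcam stood at 1.10 and 1.48 CPM against 2.24 and 1.60 CPM. The stellate cell list summed to 217 and 261 CPM in DBA/2J and 178 and 124 CPM in C57BL/6J, with 1 of 6 markers called. Reln (66.7 and 73.6 against 32.2 and 24.8 CPM) and Dcn were higher in both DBA/2J libraries. Lrat, Des, Col1a1 and Col3a1 overlapped between the strains. The sums of the Kupffer cell and endothelial lists overlapped between the strains. Of the 6 endothelial markers, however, 1 was called higher and 1 lower. Lyve1 was lower in both DBA/2J libraries (2.26 and 2.60 against 5.99 and 4.93 CPM), whereas Stab2 and Ptprb were higher in both. The pancreatic marker Prss2 stood at 0 counts in the 4 libraries, and Cpa1 at 0 or 1. The third pancreatic marker, Cela1, had 3807 and 3682 counts in DBA/2J and 1294 and 1292 in C57BL/6J, and was called higher. Acute phase genes (Saa1, Saa2, Lcn2, Orm1 and Orm2) summed to 4890 CPM in C57BL/6J replicate 1, against 1169 CPM in replicate 2 and 765 and 619 CPM in DBA/2J. In bulk tissue, fewer cells of a type and less mRNA per cell cannot be told apart. The part of these lists in the results was not tested.

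**Figure D1:**
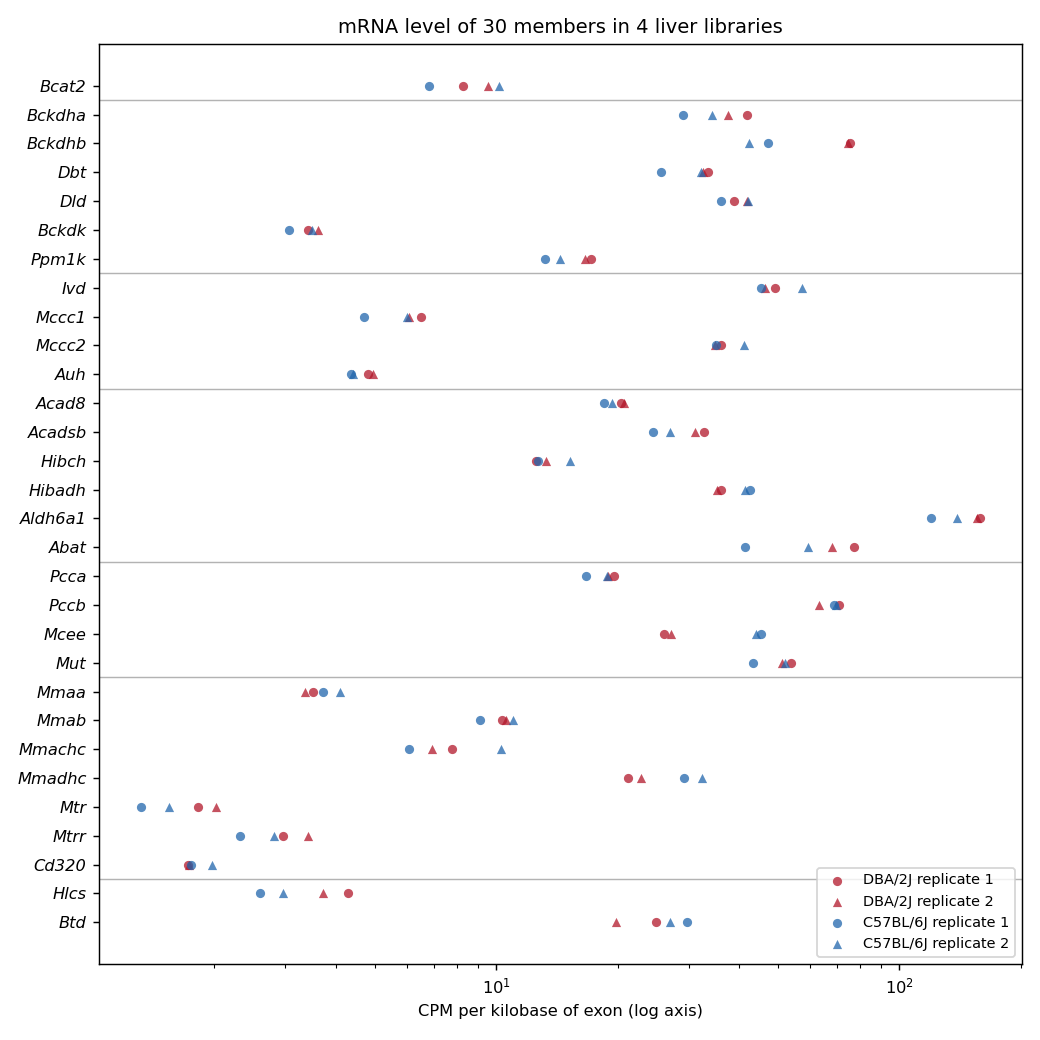
Level of the 30 tested members in each library, as CPM per kilobase of exon on a log axis, with genes in the order of the pathway and lines between the groups. Circles are replicate 1 and triangles replicate 2 of DBA/2J (red) and C57BL/6J (blue); Aldh6a1 lies farthest to the right, Mtr and Cd320 farthest to the left, and the colours separate most clearly for Bckdhb, Mcee and Mmadhc.

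Per kilobase of exon, and averaged over the 4 libraries, Aldh6a1 had the highest level at 143 CPM per kilobase. Aldh6a1 encodes methylmalonate semialdehyde dehydrogenase, the last enzyme before propionyl-CoA in valine breakdown. Pccb, Abat, Bckdhb, Mut and Ivd followed at 68.1, 61.5, 60.0, 50.1 and 49.6 CPM per kilobase. The order of these 5 changed between libraries: Bckdhb was above Pccb in both DBA/2J libraries and below it in both C57BL/6J libraries. At the low end stood Mtr, Cd320 and Mtrr with 1.68, 1.79 and 2.88 CPM per kilobase, and Bckdk, Hlcs and Mmaa with 3.39, 3.40 and 3.68. Exon length here is the sum of all annotated exons of a symbol, so genes with long, rarely used exons are understated.

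Annotated start regions of 3 of the 4 called members (all but Mmadhc) are shown. Bckdhb, Hlcs and Mtrr each have another annotated start, which is not shown, and which start the liver mRNA uses was not tested. The letters are those of the reference made from C57BL/6J, and the DBA/2J sequence was not examined. Windows run from 250 bases before to 50 after the RefSeq start (GRCm38.p6), 5′ to 3′ on the gene's strand, at chr9:83924887-83925186 (forward) for Bckdhb, chr16:94313514-94313813 (reverse) for Hlcs and chr7:64392372-64392671 (forward) for Mcee. Mtrr, at chr13:68582120-68582419 (reverse), is added because its window also holds the start of Fastkd3 on the other strand. Capitals mark the GC box letters GGGCGG and the pentamer CCAAT, or their reverse complements.
Bckdhb: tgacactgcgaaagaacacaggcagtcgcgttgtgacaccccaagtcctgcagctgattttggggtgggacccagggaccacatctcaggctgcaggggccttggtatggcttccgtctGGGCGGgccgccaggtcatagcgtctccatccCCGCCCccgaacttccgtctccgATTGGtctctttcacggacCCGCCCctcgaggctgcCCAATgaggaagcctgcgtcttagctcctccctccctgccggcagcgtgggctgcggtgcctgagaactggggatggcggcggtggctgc
Hlcs: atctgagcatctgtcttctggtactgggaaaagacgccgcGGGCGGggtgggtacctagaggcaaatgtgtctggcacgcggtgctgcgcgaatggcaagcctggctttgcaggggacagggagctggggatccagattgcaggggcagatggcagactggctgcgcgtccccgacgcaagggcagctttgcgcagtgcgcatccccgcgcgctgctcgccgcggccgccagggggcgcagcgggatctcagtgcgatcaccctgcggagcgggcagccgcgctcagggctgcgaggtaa
Mcee: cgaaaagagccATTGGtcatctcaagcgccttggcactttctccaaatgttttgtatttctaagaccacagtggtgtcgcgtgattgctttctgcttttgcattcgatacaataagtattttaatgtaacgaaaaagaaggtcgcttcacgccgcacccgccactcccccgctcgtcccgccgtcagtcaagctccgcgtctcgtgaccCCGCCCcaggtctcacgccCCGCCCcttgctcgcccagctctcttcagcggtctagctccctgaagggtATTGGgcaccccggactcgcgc
Mtrr: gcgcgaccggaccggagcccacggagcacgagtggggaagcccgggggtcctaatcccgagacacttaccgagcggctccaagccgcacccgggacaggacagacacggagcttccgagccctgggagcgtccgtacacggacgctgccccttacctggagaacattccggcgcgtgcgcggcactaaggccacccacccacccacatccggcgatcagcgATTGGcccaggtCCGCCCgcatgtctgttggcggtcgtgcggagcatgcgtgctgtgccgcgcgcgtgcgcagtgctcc

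Windows were held for 27 of the 31 members, and those of Dbt, Abat, Mut and Mmadhc were not used here. For genes with several windows, the first listed was taken. CCAAT, searched on both strands, was found in 16 of the 27 windows (59.3%) and in 38.5% of 10999 windows of tested genes. GGGCGG was found in 16 (59.3%) and in 61.4%, respectively. The E-box core CACGTG was found in 1 window, that of Mccc2 (3.7% against 9.94%), and TGACGTCA in 0 (against 3.16%). None of the motifs searched contains another. A match is a description of the window and not of a bound site. Median GC content was 55.7% in the members' windows, with a range from 41% (Bcat1) to 76% (Mmaa), against a median of 52.7% over 27025 windows of all genes, tested or not. The 27 windows include that of Bcat1, which was not tested and holds CCAAT.

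**Figure D2:**
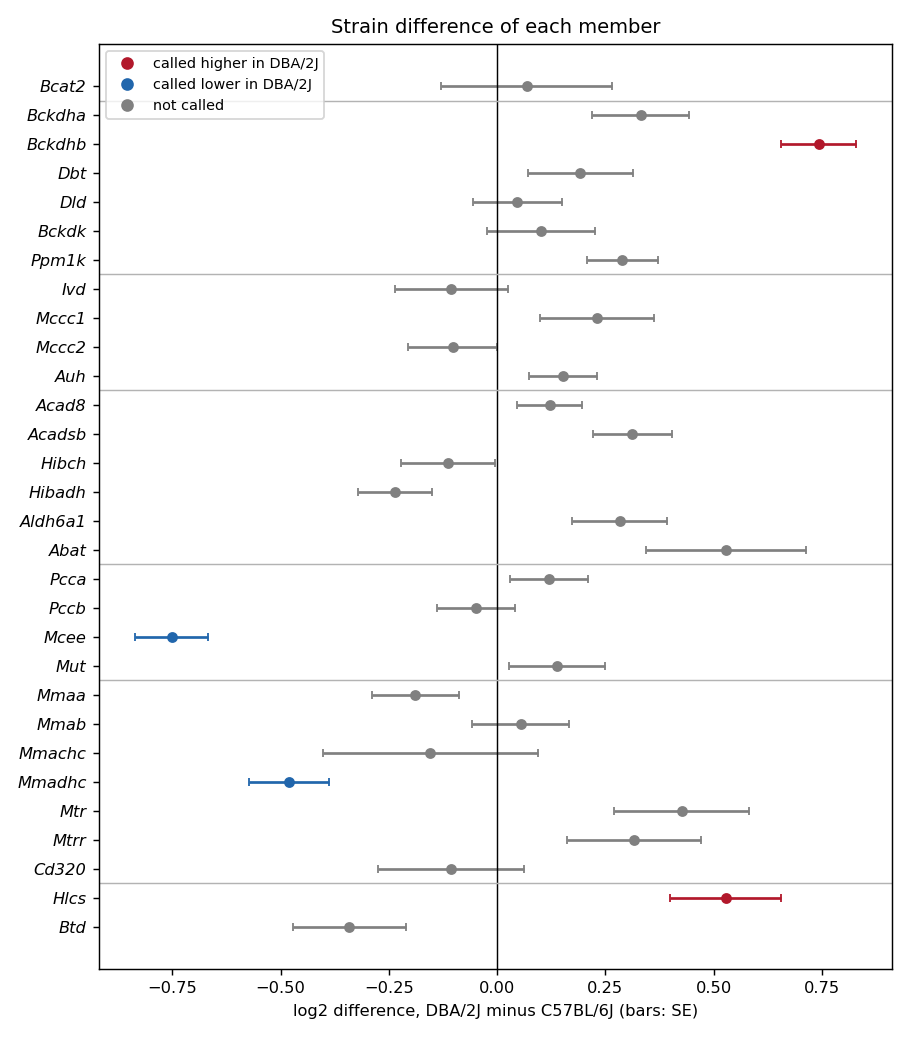
Log2 difference in mRNA level between DBA/2J and C57BL/6J for each of the 30 tested members, in the order of the pathway; points are edgeR estimates and bars their SE, red where called higher, blue where called lower and grey where not called. The called members lie at 0.74 (Bckdhb) and 0.53 (Hlcs) on the right and at -0.75 (Mcee) and -0.48 (Mmadhc) on the left. Abat, at 0.53 with a wide bar, was not called.

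The first step was carried by a single expressed gene. Bcat1, the cytosolic branched-chain aminotransferase of brain and growing cells, had 1 count in DBA/2J replicate 1 and 0 in the other 3 libraries. A count of 0 allows up to 3 counts, or 0.0542 to 0.0622 CPM in a library. Bcat2, the mitochondrial aminotransferase, stood at 32.2 and 37.1 CPM in DBA/2J replicates 1 and 2 and at 26.6 and 39.6 CPM in C57BL/6J. Its strains overlapped, and the log2 difference was 0.07 ± 0.20 (SE; edgeR adjusted p = 0.835). It was 0.38 without C57BL/6J replicate 2, where Bcat2 was called (adjusted p = 0.0378), and -0.20 without replicate 1. Bcat2 shares exons with the antisense gene 0610005C13Rik, and the headers of the files give no strand option, so reads in the shared part can go uncounted.

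Within the BCKDH complex the called gene was Bckdhb (chromosome 9, 83925145 to 84124240, GRCm38, forward strand). It encodes the beta subunit of the thiamine-dependent decarboxylase. Counts of Bckdhb were 6572 and 7459 for the DBA/2J replicates 1 and 2 and 4162 and 3821 for those of C57BL/6J, or 136 and 135 CPM against 85.4 and 76.6 CPM. Both DBA/2J libraries were far above both C57BL/6J libraries, and the DBA/2J pair was the tighter one. The DBA/2J mean was 136 CPM ± 0.985 (SD, n = 2) and the C57BL/6J mean 81.0 CPM ± 6.25 (SD, n = 2). The log2 difference was 0.74 ± 0.09 (SE), with an edgeR adjusted p of 0.00568. It ranged from 0.66 to 0.82 over the 12 alternative analyses, of which 10 kept the call. The adjusted p was 0.102 without DBA/2J replicate 1 and 0.0898 without DBA/2J replicate 2, in a range from 6.29e-08 to 0.102. In both fits the C57BL/6J pair was the only source of replicate spread, and the lone DBA/2J library was assumed to vary alike.

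The other 5 genes of the complex and its switch were not called. Bckdha, the alpha subunit that pairs with Bckdhb and carries the phosphorylation sites, had a DBA/2J mean of 75.6 CPM ± 5.76 (SD, n = 2) and a C57BL/6J mean of 60.0 CPM ± 7.06 (SD, n = 2). Its strains did not overlap, and the log2 difference was 0.33 ± 0.11 (SE; edgeR adjusted p = 0.0973). Ppm1k, the phosphatase that activates the complex, stood at 102 CPM ± 2.27 (SD, n = 2) against 83.2 CPM ± 5.17 (SD, n = 2), with a log2 difference of 0.29 ± 0.08 and an adjusted p of 0.0652. Dbt, the lipoyl-bearing core, was at 0.19 (adjusted p = 0.314), Bckdk, the inactivating kinase, at 0.10 (0.608), and Dld, the dehydrogenase that other ketoacid complexes also use, at 0.05 (0.780). The 6 log2 values were positive, with a median of 0.24. Leaving out DBA/2J replicate 2 made 5 of the 6 positive, with a median of 0.26, and leaving out C57BL/6J replicate 1 also made it 5, with a median of 0.12. Ppm1k was called when genes under a mean of 5 CPM were left out, and both Ppm1k and Bckdha were called with scaling by library totals. Both were also called without C57BL/6J replicate 2 (adjusted p of 0.0194 for Ppm1k and 0.0114 for Bckdha), as was Dbt, at 0.36 (0.0173), which stood at 0.03 without replicate 1.

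In the leucine branch 0 of 4 genes were called by edgeR, and 0 had an unadjusted p below 0.05. DESeq2 called 0 as well. Ivd, isovaleryl-CoA dehydrogenase, averaged 263 CPM ± 10.7 (SD, n = 2) for DBA/2J and 283 CPM ± 47.4 (SD, n = 2) for C57BL/6J, whose replicates stood at 249 and 316 CPM, on either side of the DBA/2J pair. Mccc1 and Mccc2, the biotin-carrying and the other subunit of methylcrotonyl-CoA carboxylase, had log2 values of 0.23 and -0.10 (adjusted p = 0.269 and 0.525). Mccc1 was called without C57BL/6J replicate 2, at 0.42 (edgeR adjusted p = 0.0123), and stood at 0.06 without replicate 1. Auh, the hydratase that follows them, was at 0.15 (adjusted p = 0.228).

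Of the 6 valine and isoleucine genes 0 were called by edgeR, and 4 had an unadjusted p below 0.05, against 35.4% of all tested genes. The libraries of 5 did not overlap between strains, as was the case for 63.8% of all tested genes. Abat, an aminotransferase of GABA and beta-alanine that also handles intermediates of valine and thymine breakdown, had the largest value in this branch. It stood at 596 and 529 CPM in DBA/2J replicates 1 and 2 and at 320.0 and 459.9 CPM in C57BL/6J. The C57BL/6J replicates lay farther apart from each other than C57BL/6J replicate 2 did from the nearer DBA/2J library, and the log2 difference was 0.53 ± 0.19 (SE; edgeR adjusted p = 0.105). Without C57BL/6J replicate 1 it was 0.29 and without replicate 2 it was 0.81 (adjusted p = 0.00222). Acadsb, which dehydrogenates the isoleucine intermediate, was at 0.31 ± 0.09 (adjusted p = 0.067) and Aldh6a1 at 0.28 ± 0.11 (0.128). Abat and Acadsb were called by DESeq2. Without C57BL/6J replicate 2, edgeR called Acadsb at 0.39 (0.0194) and Aldh6a1 at 0.39 (0.0301). Hibadh, the dehydrogenase of hydroxyisobutyrate, was at -0.24 ± 0.09 (adjusted p = 0.113), with each DBA/2J library below each C57BL/6J library. Acad8, the isobutyryl-CoA dehydrogenase, and Hibch, the hydrolase of hydroxyisobutyryl-CoA, were at 0.12 and -0.11.

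On the propionate route Mcee was the called gene (chromosome 7, 64392607 to 64412125, GRCm38, forward strand). The epimerase turns the product of propionyl-CoA carboxylase into the form that the mutase accepts. Counts of Mcee were 1201 and 1436 for DBA/2J and 2114 and 2109 for C57BL/6J, or 24.90 and 25.96 CPM against 43.4 and 42.3 CPM. The pairs were tight and well separated. The means were 25.4 CPM ± 0.752 (SD, n = 2) and 42.8 CPM ± 0.791 (SD, n = 2), a log2 difference of -0.75 ± 0.08 (SE; edgeR adjusted p = 0.00484). The value ranged from -0.79 to -0.67 over 12 alternatives, and 10 kept the call. The adjusted p was 0.102 without DBA/2J replicate 1 and 0.0857 without replicate 2, in a range from 1.13e-07 to 0.102. Mcee had the shortest exons of the 31 genes, 956 bases, and 1185 tested genes with under 1000 bases of exon had a median log2 of -0.13.

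The enzymes on either side of Mcee had smaller values. Pcca, the biotin-carrying subunit of propionyl-CoA carboxylase, was at 0.12 (edgeR adjusted p = 0.395), and Pccb, its partner, at -0.05 (0.740), a sign that turned with scaling by library totals. Mut, the mutase that needs adenosylcobalamin, averaged 193 CPM ± 7.57 (SD, n = 2) for DBA/2J and 175 CPM ± 22.5 (SD, n = 2) for C57BL/6J, a log2 difference of 0.14 (adjusted p = 0.422). Per kilobase of exon, Mut stood at 52.5 and Mcee at 26.6 CPM in DBA/2J, against 47.7 and 44.8 CPM in C57BL/6J, where their libraries overlapped.

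Mmadhc was the called gene among those that handle cobalamin (chromosome 2, 50279881 to 50296801, GRCm38, reverse strand). Its protein takes cobalamin from the Mmachc protein and apportions it to methionine synthase in the cytosol and to the mutase in mitochondria. Counts of Mmadhc were 2066 and 2541 for DBA/2J and 2870 and 3244 for C57BL/6J, or 42.8 and 45.9 CPM against 58.9 and 65.0 CPM. The DBA/2J libraries were both below the C57BL/6J libraries by more than either pair differed. The log2 difference was -0.48 ± 0.09 (SE; edgeR adjusted p = 0.0218), and ranged from -0.56 to -0.40 over 12 alternatives, of which 9 kept the call. The call was lost with DBA/2J replicate 1 or 2 left out (adjusted p of 0.210 and 0.1495, in a range from 0.00179 to 0.210) and with no filter on low counts (0.0656).

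None of the other 6 cobalamin genes passed the test with the 4 libraries. Mmachc, which removes the upper ligand of cobalamin, had 17.3 and 15.4 CPM in DBA/2J and 13.5 and 22.9 CPM in C57BL/6J. The C57BL/6J pair enclosed the DBA/2J pair, and the log2 difference of -0.15 became 0.27 without C57BL/6J replicate 2 and -0.49 without replicate 1, where it was called (edgeR adjusted p = 0.0191). Mmaa, the chaperone that loads the mutase, was at -0.19 (adjusted p = 0.241), and Mmab, which makes adenosylcobalamin, at 0.05 (0.768). Cd320, the receptor for transcobalamin, stood at 4.48 CPM ± 0.0314 (SD, n = 2) and 4.82 CPM ± 0.406 (SD, n = 2). Methionine synthase Mtr and its reductase Mtrr were at 0.43 ± 0.16 and 0.32 ± 0.15 (adjusted p = 0.114 and 0.209), with no overlap of the strains in either gene. Both were called without C57BL/6J replicate 2, at 0.55 and 0.46 (0.0358 and 0.0489), and stood at 0.31 and 0.18 without replicate 1.

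The genes of biotin handling had values of opposite sign. Hlcs (chromosome 16, 94129195 to 94313563, GRCm38, reverse strand) joins biotin to the carboxylases, among them the Pcca and Mccc1 proteins. Its counts were 1050 and 1043 for DBA/2J and 642 and 748 for C57BL/6J, or 21.8 and 18.9 CPM against 13.2 and 15.0 CPM. Each DBA/2J library was above each C57BL/6J library. The log2 difference was 0.53 ± 0.13 (SE; edgeR adjusted p = 0.0422), the weakest of the 4 calls. It ranged from 0.41 to 0.62 over 12 alternatives, of which 8 kept the call. It was lost with no filter (adjusted p = 0.0919) and with the replicate number as a block, and the adjusted p reached 0.330 without DBA/2J replicate 1 and 0.172 without replicate 2, in a range from 0.00902 to 0.330. Btd, which frees biotin for reuse, was at 58.8 and 46.5 CPM in DBA/2J and 69.8 and 63.5 CPM in C57BL/6J. Its log2 difference was -0.34 ± 0.13 (adjusted p = 0.126), or -0.41 without C57BL/6J replicate 2, where it was called (0.0492), and its exons overlap those of Hacl1 on the other strand.

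The ratio between members within a library does not depend on how libraries are scaled. In all, 7 ratios were compared, some of them between subunits of a complex. Bckdha to Bckdhb stood at 0.585 and 0.530 in DBA/2J replicates 1 and 2 and at 0.645 and 0.850 in C57BL/6J, a log2 difference of -0.41. The gap between the nearest libraries of the strains was 0.14, less than the spread of the C57BL/6J pair (SD 0.28, n = 2). With a library left out, the difference ranged from -0.61 without C57BL/6J replicate 1 to -0.21 without replicate 2. Mccc1 to Mccc2 stood at 0.930 and 0.898 in DBA/2J and at 0.694 and 0.752 in C57BL/6J. There the log2 difference was 0.34, with SDs of 0.04 and 0.08, and the gap of 0.26 was wider than either spread. Mccc1 has several antisense genes over its exons, so its count may not cover the same part of the transcript as that of Mccc2. For the other 5 ratios the log2 difference ranged from -0.19 (Bckdk to Ppm1k) to 0.19 (Acadsb to Acad8). In all 7 the strains did not overlap, with a gap as small as 0.03 for Dbt to Bckdha. No share over other pairs of genes was computed, and 63.8% of single tested genes did not overlap either. The exact two-sided permutation test gave p = 0.333 for each, the smallest that 2 against 2 libraries allow, and 0.333 after adjustment over the 7.

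**Figure D3:**
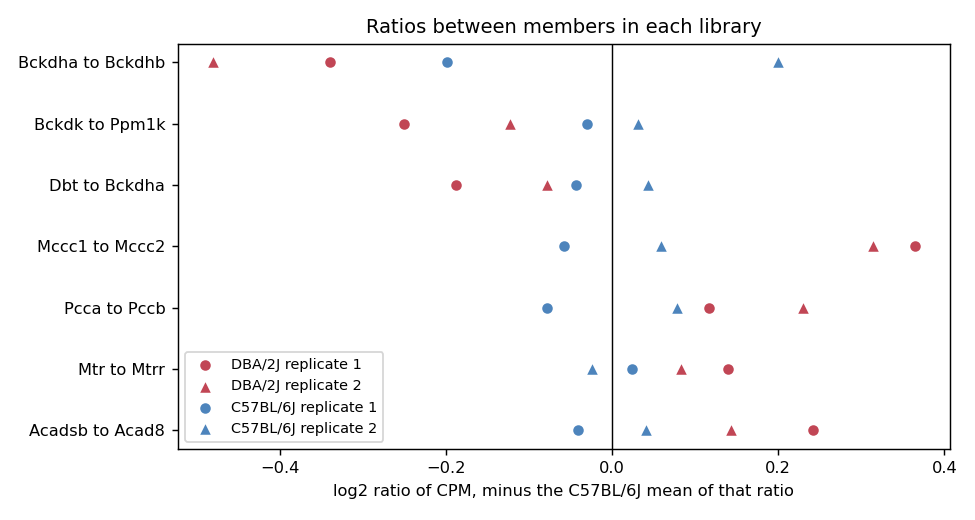
Log2 ratio of CPM between pairs of members in each library, from which the C57BL/6J mean of that ratio was subtracted; symbols as in the plot of levels. The DBA/2J libraries lie left of the C57BL/6J libraries for Bckdha to Bckdhb and right of them for Mccc1 to Mccc2.

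The libraries did not overlap between strains for 20 of the 30 members (66.7%), 14 of them with DBA/2J higher and 6 with DBA/2J lower. Over all tested genes 63.8% did not overlap, so the share among the members was near the background. The C57BL/6J replicates stood apart for most members. Of the 30, 26 had a lower CPM in C57BL/6J replicate 1 than in replicate 2, against 51.4% of all tested genes, and the median log2 difference between these replicates was -0.20 (-0.01 over all tested genes). The largest of these differences were in Mmachc (-0.76), Bcat2 (-0.58) and Abat (-0.52), whereas Bckdhb, Hibadh, Mcee and Btd were above 0. In DBA/2J 12 of 30 were lower in replicate 1 and the median was 0.04. C57BL/6J replicate 1 was the lowest of the 4 libraries for 20 members, against 30.7% of all tested genes. The order was shared by 40 of the 53 tested genes outside the list that feed, share or use the pathway. Among them were all 8 of the group around beta-oxidation and 9 of 10 in other complexes that use Dld. So were 5 of 5 genes of succinyl-CoA use, 3 of 3 of lipoylation, and 3 of 4 of biotin uptake and other biotin carboxylases. The order was rarer in the remaining groups, with 5 of 8 cobalamin genes, 4 of 6 methionine cycle genes, 2 of 6 amino acid transporters and 1 of 3 regulators.

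C57BL/6J replicate 1 is also the library with the highest acute phase level, with 95929 counts of Saa1 against 6897 in replicate 2. Its neutrophil markers stood apart too, at a low level: S100a8, S100a9, Ly6g and Retnlg summed to 5.89 CPM, against 0.253 to 0.497 CPM in the other 3 libraries. Without it, the median log2 difference of the members was 0.01, and 2 were called higher (Bckdhb and Hlcs) and 3 lower (Mcee, Mmadhc and Mmachc), where 24.2% of all tested genes were called. Without replicate 2 the median was 0.20, and 12 were called higher and 3 lower, where 29.9% were called. Bckdhb, Hlcs, Mcee and Mmadhc kept their calls in both fits. The part of the acute phase and neutrophil levels in the members' values was not tested.

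**Figure D4:**
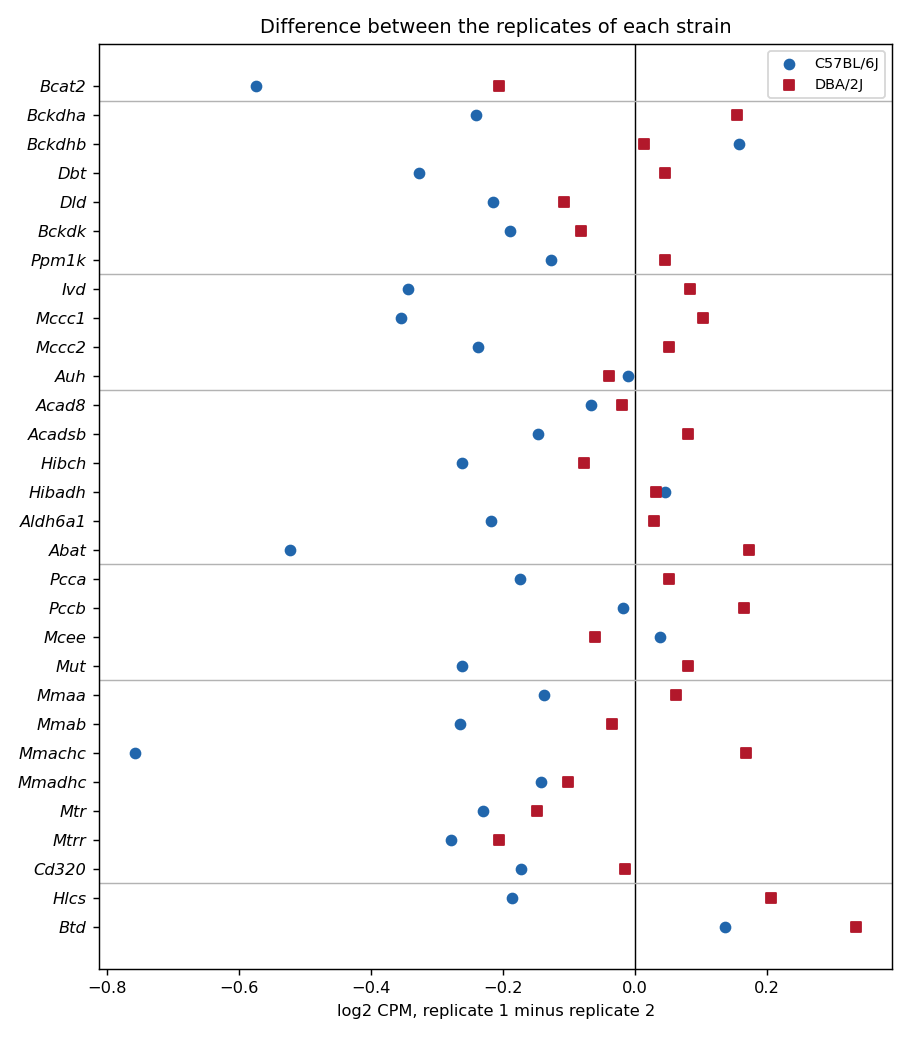
Log2 CPM of replicate 1 minus replicate 2 within each strain, for the 30 tested members in the order of the pathway. The C57BL/6J points (blue circles) lie left of 0 for 26 genes, and the DBA/2J points (red squares) lie on both sides, 12 of them left of 0.

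Beyond the members, 53 tested genes that feed, share or use the pathway were examined, and 12 were called, 9 higher and 3 lower (22.6%, against 18.2% of all tested genes). Of 6 amino acid transporters, Slc3a2, the heavy chain of the large neutral amino acid exchanger, was higher at 0.54 ± 0.10 (SE; edgeR adjusted p = 0.018). Slc25a44, the mitochondrial branched-chain amino acid carrier, was at 0.08. Among 8 further genes, mostly of shared beta-oxidation steps, Hsd17b10, which acts on isoleucine intermediates, was lower at -0.59 ± 0.11 (adjusted p = 0.0198). Suclg2, a subunit of succinyl-CoA ligase, was lower at -0.47 (0.0198) and was the called gene of 5 in its group.

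The Dld protein is shared with other complexes, and 4 of 10 genes of those were called, all higher in DBA/2J. That is 40.0%, against 18.2% of all tested genes, and 4 of the 10 had a negative log2 difference. Dhtkd1 of lysine breakdown was higher at 1.65 ± 0.21 (SE; edgeR adjusted p = 0.0075), the glycine cleavage genes Gldc and Amt at 0.88 and 0.68 (0.0306 and 0.0071), and Dlat, the core of pyruvate dehydrogenase, at 0.35 (0.0306). Pyruvate dehydrogenase genes Pdha1, Pdhb and Pdhx were not called (0.25, -0.37 and -0.05). Lipoylation genes, which make the cofactor of Dbt, were called in 0 of 3 cases by edgeR: Lias at 0.00, Lipt1 at 0.17 and Lipt2 at -0.19, with 0 unadjusted p below 0.05 and 0 calls by DESeq2.

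Upstream of the cobalamin members, 3 of 8 tested genes were called, all higher (37.5%, against 18.2% of all tested genes). Amn, which with cubilin forms the receptor for intrinsic factor and cobalamin in gut and kidney, was counted 144 and 175 times for DBA/2J and 9 and 17 times for C57BL/6J. The DBA/2J libraries were far above the others at a low level, 3.07 CPM ± 0.126 (SD, n = 2) against 0.263 CPM ± 0.110 (SD, n = 2), and the log2 difference was 3.53 ± 0.34 (SE; edgeR adjusted p = 0.00308). Cubn, its partner, had 2 and 11 counts in DBA/2J and 9 and 8 in C57BL/6J and was not tested. Tcn2, the plasma carrier of cobalamin, was higher at 0.40 (0.0441), and Hcfc1, a transcriptional co-regulator needed for Mmachc expression, at 0.43 (0.0276). Of 4 genes of biotin uptake and other biotin carboxylases, Acaca was lower at -1.45 and kept its call in 12 of 12 alternatives, while Pcx, pyruvate carboxylase, was at 0.20 and the biotin carrier Slc5a6 at -0.07. Of 3 regulators, Ppargc1a was higher at 0.91 (0.0326), Klf15, a driver of branched-chain amino acid breakdown, was at 0.11 and Mlxipl at -0.14. Methionine cycle genes were called in 0 of 6 cases by edgeR, with 1 unadjusted p below 0.05, and had values from -0.16 (Mat1a) to 0.38 (Cbs). DESeq2 called 1 of them, Cbs. Apart from Acaca, the called genes of this list lost their calls when either DBA/2J library was left out, and Tcn2 also lost it without C57BL/6J replicate 1 (adjusted p = 0.0521).

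Many members start close to a gene on the other strand. Such a partner, with its start within 1000 bases, was found 14 times, and 12 of these partners were tested. Fastkd3, a mitochondrial RNA-binding protein gene whose start lies 127 bases from that of Mtrr, was higher in DBA/2J at 0.68 ± 0.15 (SE; edgeR adjusted p = 0.0323), beside 0.32 for Mtrr. Its counts were 470 and 514 for DBA/2J and 269 and 319 for C57BL/6J, and the call was lost with DBA/2J replicate 1 or 2 left out. Mphosph10, 339 bases from Mcee, was at 0.14 (adjusted p = 0.417), of opposite sign to Mcee. Mvk, the mevalonate kinase gene, starts 209 bases from Mmab, and the values were 0.11 and 0.05. Ikzf5, 80 bases from Acadsb, was at -1.28 ± 0.33 (0.0514) on 31 to 95 counts, whereas Acadsb was at 0.31. For Exosc5 and Bckdha the values were -0.21 and 0.33, for Thyn1 and Acad8 -0.22 and 0.12, and for Lin52 and Aldh6a1 -0.38 and 0.28. For Ccdc163 and Mmachc they were -0.34 and -0.15, and for Gm4890 and Mmaa -0.39 and -0.19. For Cenpq and Mut they were 0.16 and 0.14, and for Hacl1 and Btd 0.03 and -0.34. Mccc1os was at 0.18 ± 0.56 (SE) on 6 to 15 counts, beside 0.23 for Mccc1, with which it shares exons. The partners of Bckdhb (RP23-218I3.4) and Mmadhc (Gm13483) had at most 10 counts in a library and were not tested.

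**Figure D5:**
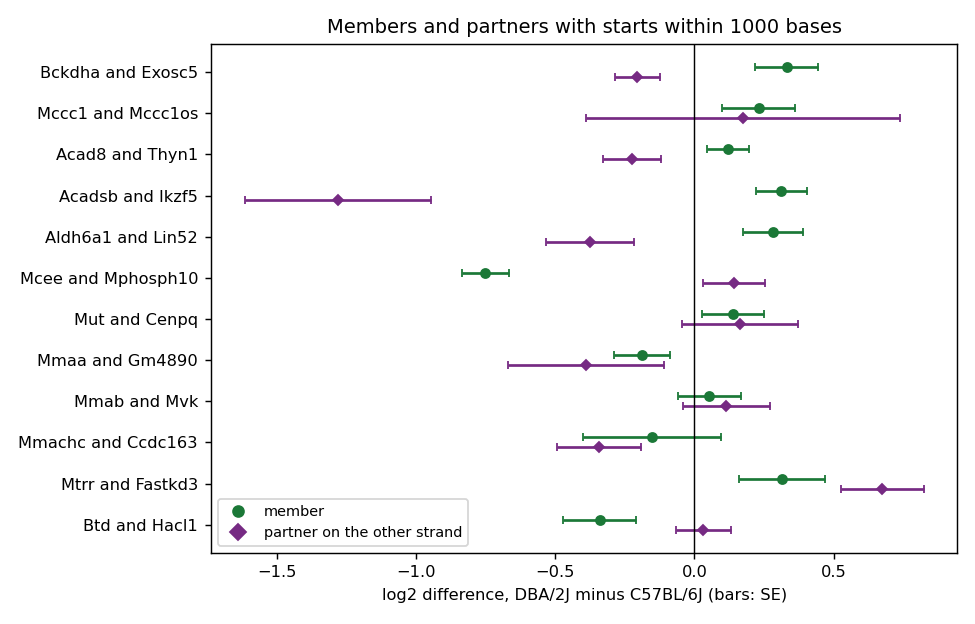
Log2 difference between DBA/2J and C57BL/6J of 12 members (green circles) and of the gene on the other strand that starts within 1000 bases (purple diamonds), with SE bars from the edgeR fit. Mtrr and Fastkd3 both lie right of 0, while Mcee and Mphosph10, and Acadsb and Ikzf5, lie on opposite sides.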

How the data were processed

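The deposited tables, 1 per library, hold raw read counts by gene symbol. Per the file headers, featureCounts 2.0.1 counted over exons of Ensembl release 88 (GRCm38), with the paired-end option set and no option for strand or multi-mapping reads. The submitters' processing notes name STAR 2.4.0g1 and featureCounts 1.5.2. DBA/2J reads were placed on a reference made from C57BL/6J, so reads over strain variants can be lost. Per the labels' protocols, reads were single-end and 100 bases long. Strain labels gave the groups, and titles the replicate numbers.

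Counts were tested in R 4.3.3 with edgeR 4.0.16 (glmQLFit with legacy=FALSE, glmQLFTest, TMM, strain as the sole term) after filterByExpr with a minimum count of 10. P-values were adjusted over all 15647 tested genes and called below 0.05. SE values come from the F statistic. DESeq2 1.42.0 was an alternative, among 12. The code was checked on simulated counts. Transcripts of the members were compared with those of other genes (GENCODE M21, GRCm38) by blastn 2.17.0: at 300 or more bases and 95% identity only Bckdha matched, with B3gnt8, whose exons it overlaps. Of the members, 9 share exons with another symbol (Bcat1, Bcat2, Bckdha, Mccc1, Hibadh, Aldh6a1, Pcca, Mut and Btd), none of them called.

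Members and lists were chosen with earlier results of these data known. All members are named, with values in every library for called members and for non-overlapping ones with an absolute log2 of at least 0.5. Neighbours are named where called or in groups of at most 3 tested genes, and further ones were chosen after their values were seen. Pyruvate carboxylase, listed as Pc, was read as Pcx, its RefSeq symbol. A gene of these lists is counted but not reported here by name.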

Additional observations from a re-analysis of the deposited data

How the results depend on the processing

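Counts of calls were small, so most moved by over 1.5 times under some setting. Against 2 members called higher, there were 4 with DESeq2, 5 with scaling by library totals, 4 with a filter at a mean of 5 CPM, 1 with no filter and 1 with the replicate block. Against 2 lower, there was 1 with no filter. The share of all tested genes called moved too, from 18.2% in the reported fit to 5.87% with no filter. It was 21.1% with DESeq2, 18.8% with library totals, 22.8% with the filter at 5 CPM and 15.3% with the replicate block. With each library left out in turn, 0 to 12 members were higher and 0 to 3 lower, and their median ranged from 0.0065 to 0.20. Pathway genes outside the list, 9 higher and 3 lower, numbered 3 and 1 with no filter, and 0 to 14 and 1 to 4 with a library left out. The cause of these changes was not tested, except that the fits without a library rest on fewer samples. Over all tested genes, scaling by totals gave 1924 higher and 1024 lower calls, and moved the median log2 by 0.08.

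The replicate block, strain plus replicate number, called Bckdhb higher and Mcee and Mmadhc lower and lost Hlcs, Dlat and Tcn2. The labels do not say that a number marks a shared day or litter. Deviations of same-numbered libraries correlated at -0.06 across genes. That is a single contrast per strain, which cannot show whether such libraries shared a day or litter. Of 48 alternative values of the called members, 37 kept the call and 11 lost it, and no sign turned. No ratio turned its sign when a library was left out. With 2 libraries a strain, the SE of a member's log2 difference was between 0.08 (Acad8) and 0.25 (Mmachc).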
